A study of Mus musculus with 12 samples.

Results

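The comparison described here set luminal against myoepithelial cells of mouse mammary epithelium from which Wnt4 had been deleted. Its members were the 6 of 12 arrays in the series whose titles mark Wnt4-deleted cells, 3 of CD24 high and 3 of CD24 low cells, and no measured value entered the choice. CD24 high cells were labelled luminal and CD24 low cells myoepithelial. All mice were 10 to 14-week-old females that carried a Cre recombinase under the MMTV promoter and the mT/mG reporter, which turns green where Cre has acted. The deleted animals had the genotype MMTV::Cre+.Wnt4fl/fl.mT/mG and the WT animals MMTV::Cre+.Wnt4wt/wt.mT/mG, so Cre and reporter were shared by every group. Lineage-depleted, GFP+ cells were sorted by CD24, so the gate was meant to select cells in which the MMTV promoter had driven Cre. Purity of the sorts could not be checked here, and markers of other cell types are given further below. The source was mammary glands according to the design text but mammary grafts according to a treatment note, and which applied was not settled. Arrays are named by the number in their titles. CD24 low arrays of deleted cells are 3, 11 and 15 and CD24 high arrays are 4, 12 and 16, and values of single arrays are given in this order throughout.

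The mammary duct is a bilayer. Its inner luminal cells form the tight, polarized lining that later makes milk, and some of them carry the estrogen and progesterone receptors, through which ovarian hormones act. Its outer myoepithelial cells contract in response to oxytocin, lie on the basement membrane and express basal keratins, and progesterone-responsive luminal cells reach them through the secreted ligand Wnt4.

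Each array gave a log2 RMA value for 19938 genes. A difference is the mean of the CD24 high arrays minus that of the CD24 low arrays, so 1 unit is a 2-fold change and a negative value means a gene lower in luminal cells. limma was fitted to all 12 arrays and the p-values adjusted over all genes by the Benjamini-Hochberg method. A gene passed when this adjusted p was under 0.05. In bulk RNA, fewer cells of a type and less RNA per cell cannot be told apart, and because the labels tie no array to an experiment the p-values measure only the spread between these arrays.

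Wnt4 itself was at 6.20, 6.66 and 6.28 in the CD24 low arrays and at 6.11, 6.46 and 6.78 in the CD24 high arrays. The arrays of both fractions overlapped, and the difference was 0.07 (SE 0.19, limma adjusted p = 0.881). In WT cells Wnt4 was at 7.42, 7.92 and 7.62 in the CD24 high arrays and between 6.45 and 6.63 in the CD24 low arrays. Deleted minus WT in CD24 high cells was -1.20 (SE 0.19), with no overlap between arrays, but did not pass over all genes (limma adjusted p = 0.416). Cd24a, the gene of the sorted surface protein, differed by 0.57 (SE 0.16). It was chosen by the gate and is no result.

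The fractions were far apart. Arrays within the CD24 low group correlated at 0.963 to 0.973 over all genes, those within CD24 high at 0.977 to 0.989 and those of different fractions at 0.905 to 0.939. Of 19938 genes, 3278 (16.4%) passed, 1640 of them higher in CD24 high cells (8.23%) and 1638 lower (8.22%). The 3 arrays of one fraction did not overlap the 3 of the other for 5836 genes (29.3%). Most genes named below were chosen because they passed, so a lack of overlap given for them adds no result of its own. The median difference over all genes was 0.01 and the median SE 0.17. Equal numbers passed each way, but the sizes were unequal. Of the passing genes that differed at least 2-fold, 788 were higher in CD24 high cells and 1045 were lower. At 16-fold or more the numbers were 11 higher and 47 lower.

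Array 16 weighed most on these counts. Without it 2156 genes passed, and without CD24 low array 3 the number was 3628. Every one of the 3278 genes kept its direction when any single array was left out.

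**Figure D1:**
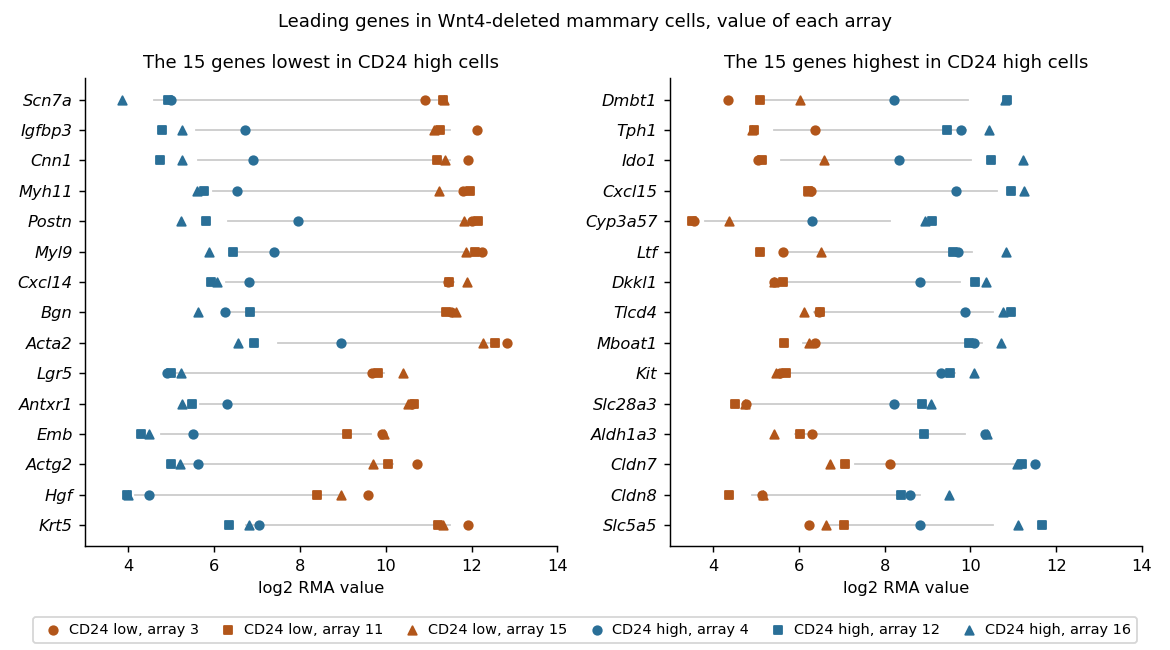
Log2 RMA values (x axis) of the 15 genes with the lowest and the 15 with the highest difference in Wnt4-deleted cells (rows), 1 point per array, CD24 low in orange and CD24 high in blue, grey lines joining the group means. Only genes whose fractions do not overlap could be chosen, so the lack of overlap of these genes, here and in the text, is no result. Array 4 (blue circles) often lies nearest to the CD24 low arrays, as for Acta2 (8.95) and Dmbt1 (8.21).

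Myoepithelial genes were lower in CD24 high cells almost without exception. Of 20 myoepithelial markers measured, 19 passed and all 19 were lower, with a median difference of -3.84 over the list. The exception was Itgb1, the integrin beta1 chain, at -0.52 (adjusted p = 0.0716). The smooth muscle contractile genes gave 17 of 20 lower, none higher, a median of -3.03 and the same 17 counts whichever array was left out. Acta2, smooth muscle alpha-actin, was at 12.84, 12.55 and 12.27 in CD24 low and at 8.95, 6.92 and 6.56 in CD24 high arrays, a difference of -5.08 (SE 0.49, adjusted p = 3.67e-05). Cnn1, calponin, was at 11.91, 11.19 and 11.37 against 6.90, 4.75 and 5.25, a 58.1-fold difference. In both genes array 4 held more transcript than arrays 12 and 16 yet stayed far below every CD24 low array. Myh11, the smooth muscle myosin heavy chain, differed by -5.70 (SE 0.29), Myl9, a regulatory light chain, by -5.49 (SE 0.31) and Tpm2, a tropomyosin, by -4.32 (SE 0.32). Oxtr, the oxytocin receptor through which milk ejection is triggered, was at 8.93, 9.32 and 8.24 against 5.75, 5.33 and 5.29, a 10.4-fold difference. The fractions did not overlap, and the receptor moved in the same direction as the machinery it drives. Srf and Myocd, the factor and cofactor that activate contractile genes, did not pass and had differences of 0.06 and -0.58.

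Promoters of contractile genes and of members of a YAP and TAZ list are shown here because most passing members of both lists were lower in luminal cells. YAP and TAZ are coactivators that bind DNA through TEAD factors. They are the 250 bases before the transcription start from RefSeq (GRCm38.p6), 5′ to 3′ on the gene's strand. Capitals mark the CATTCC motif (MCAT, the TEAD core, also read as GGAATG on the other strand) or, for Myl9, a CArG box, the site of SRF. Only the strict form of the CArG box is marked, as described below.
Acta2, chr19:34255374-34255623, minus strand: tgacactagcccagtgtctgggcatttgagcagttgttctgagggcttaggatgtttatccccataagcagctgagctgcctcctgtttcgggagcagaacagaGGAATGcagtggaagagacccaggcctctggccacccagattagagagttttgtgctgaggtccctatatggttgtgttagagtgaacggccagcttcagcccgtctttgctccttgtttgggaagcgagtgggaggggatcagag
Mylk, chr16:34784700-34784949, plus strand: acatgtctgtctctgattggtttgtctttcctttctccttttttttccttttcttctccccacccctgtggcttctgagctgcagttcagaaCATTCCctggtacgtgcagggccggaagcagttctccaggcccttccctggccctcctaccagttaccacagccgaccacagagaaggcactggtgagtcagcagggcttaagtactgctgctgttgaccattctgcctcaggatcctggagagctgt
Lmod1, chr1:135324563-135324812, plus strand: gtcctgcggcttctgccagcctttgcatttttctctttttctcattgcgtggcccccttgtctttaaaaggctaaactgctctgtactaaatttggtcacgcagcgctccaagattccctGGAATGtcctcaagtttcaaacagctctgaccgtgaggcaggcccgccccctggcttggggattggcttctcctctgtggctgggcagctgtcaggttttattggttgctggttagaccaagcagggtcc
Myl9, chr2:156775214-156775463, plus strand: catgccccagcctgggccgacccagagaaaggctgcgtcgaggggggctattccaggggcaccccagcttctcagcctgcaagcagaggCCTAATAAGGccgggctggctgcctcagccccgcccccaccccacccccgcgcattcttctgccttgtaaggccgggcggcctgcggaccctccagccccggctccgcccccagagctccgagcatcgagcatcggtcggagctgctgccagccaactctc
Axl, chr7:25788734-25788983, minus strand: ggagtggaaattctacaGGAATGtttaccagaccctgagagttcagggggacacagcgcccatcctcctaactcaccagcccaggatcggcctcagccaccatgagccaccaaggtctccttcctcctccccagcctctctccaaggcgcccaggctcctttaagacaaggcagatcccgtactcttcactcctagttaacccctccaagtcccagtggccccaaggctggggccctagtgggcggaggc
Ptpn14, chr1:189728018-189728267, plus strand: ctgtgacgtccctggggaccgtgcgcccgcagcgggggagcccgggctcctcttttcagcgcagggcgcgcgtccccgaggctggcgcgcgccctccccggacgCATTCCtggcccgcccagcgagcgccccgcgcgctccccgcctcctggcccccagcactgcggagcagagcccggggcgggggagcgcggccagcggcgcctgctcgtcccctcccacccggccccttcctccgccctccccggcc

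In windows of 300 bases (250 before to 50 after a start), the CATTCC motif was found on either strand in 7 of 16 contractile genes with a window and in 11 of 16 genes of the YAP and TAZ list, against 15.1% of the 15614 measured genes with a window and 14.7% of all 32841 windows. It stood in 17.9% of the genes that passed lower and in 15.5% of those that passed higher. The YAP and TAZ list holds the genes of YAP, TAZ and the TEAD factors besides targets, and Yap1, Wwtr1 (TAZ) and Tead3 were among the 11. The CArG box was searched only in its strict form, CC and GG around A and T alone. It was found in 2 of 16 contractile genes, Myl9 and Srf, and in 1.63% of the measured genes and of all windows alike. Forms with a G or C inside, such as ccctatatgg and ccttgtttgg in the Acta2 window, were not counted. The motifs GCCNNNGGC (AP-2) and AACCGGTT (Grainyhead) were searched too. Of 20 tight junction genes with a window, 9 held the first, against 23.6% of the measured genes, 28.1% of those that passed higher, 32.3% of those that passed lower and 16.6% of all windows. The second was in none of the 20 and in 0.146% of all windows. Both strands were searched, a match of one motif may share bases with a match of another, and the motifs were chosen with the gene values known and are described without a test.

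Keratins changed over from one fraction to the other. Of the basal keratins, Krt5 was at 11.93, 11.22 and 11.33 in CD24 low and at 7.05, 6.34 and 6.82 in CD24 high arrays (difference -4.75, SE 0.21, adjusted p = 2.35e-07). Krt17 differed by -4.55 (SE 0.51), Krt14 by -3.84 (SE 0.26) and Krt15 by -2.78 (SE 0.44). The keratins of simple epithelium went the other way. Krt7 was at 8.64, 7.82 and 7.41 against 11.33, 11.40 and 11.53 (difference 3.46), and Krt19 was 9.17-fold, Krt18 4.23-fold and Krt8 3.17-fold higher in CD24 high cells. Krt8 and Krt18, which polymerize with each other, were still at 10.19 or more in every CD24 low array. No keratin named here overlapped between the fractions, but these keratins were chosen because they passed.

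Of 17 general luminal markers 16 passed, all higher in CD24 high cells, with a median of 2.42. The exception was Gata3, a factor of luminal fate, at 10.15, 9.92 and 9.72 against 9.98, 10.72 and 10.84 (difference 0.59, adjusted p = 0.0783). Junction genes stood at the upper end of the list. Cldn7, a claudin of the tight junction, was at 8.11, 7.08 and 6.73 in CD24 low and at 11.51, 11.19 and 11.09 in CD24 high arrays, a 15.5-fold difference. In a list of 24 claudin and tight junction genes 14 passed, all higher, with a median of 1.77. Ocln, occludin, was at 5.65, 5.58 and 5.46 against 8.96, 8.61 and 8.24 (difference 3.04, SE 0.19). The fractions did not overlap for either gene. Cldn8 (3.92), Cldn3 (3.05), Marveld2 or tricellulin (2.94) and the junction adaptor Cgn (2.62) were higher as well, whereas the scaffold protein Tjp1 was at -0.05.

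Adhesion genes outside the tight junction went both ways. Of 19 cadherin and desmosome genes 10 passed lower and 5 higher. Those lower included Cdh13 (-2.07), Cdh11 (-1.77) and Cdh5 (-3.44), which is also on the list of endothelial markers. The call of Cdh5 was lost without array 4, 11, 15 or 16, so the count does not set the 2 epithelial layers apart by itself. Cdh3, P-cadherin, was at 11.26, 10.59 and 9.97 against 6.26, 5.86 and 5.47 (difference -4.74, SE 0.30). Cdh1, E-cadherin, was at 10.80, 9.67 and 9.15 against 11.63, 11.23 and 11.47 (difference 1.57, SE 0.35, adjusted p = 0.00966), a call lost when only the 6 compared arrays were fitted. Neither Cdh3 nor Cdh1 overlapped between fractions. The desmosomal genes Pkp2 (2.89) and Dsc2 (1.37) were higher and Dsc3 (-1.51), Pkp1 (-1.45) and Dsp (-1.08) lower in CD24 high cells.

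Luminal transcription factors gave 14 higher and 5 lower of 28 measured. Elf5, which directs the alveolar secretory lineage, was at 5.10, 5.44 and 5.60 against 9.03, 8.82 and 9.44 (difference 3.72, SE 0.33, adjusted p = 1.82e-05). Foxa1, a pioneer factor for the estrogen receptor, was at 7.07, 7.19 and 6.61 against 9.42, 10.02 and 9.61, a 6.62-fold difference. The related ETS factors Ehf (3.64) and Elf3 (2.42) and the epithelial factors Grhl1 (2.90) and Ovol1 (1.95) were higher too. Against this direction, Cebpb (-1.48), Tfap2c (-1.34) and Runx1 (-0.95), all with known functions in mammary epithelium, were lower in CD24 high cells. Of 24 basal transcription factors 12 passed lower. Trp63, the master factor of basal epithelium, was at 10.31, 9.84 and 10.17 against 5.70, 6.81 and 7.10 (difference -3.57, SE 0.29). Snai2, the repressor Slug, was at 9.88, 9.09 and 10.12 against 5.20, 5.79 and 5.42, an 18.7-fold difference, and Irx4 differed by -4.26 (SE 0.17) and Mef2c by -2.90 (SE 0.23). The only basal list member that passed the other way was Meis1 (0.89, SE 0.19).

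Both luminal subsets were found in the CD24 high arrays. Of 16 hormone-sensing genes 10 passed, all higher, with a median of 1.42. Esr1, the estrogen receptor, was at 6.59, 6.95 and 6.45 against 8.66, 8.72 and 8.97 (difference 2.12, SE 0.20, adjusted p = 3.29e-05). Pgr, the progesterone receptor upstream of Wnt4, was at 6.55, 6.93 and 6.70 against 8.52, 9.85 and 9.88, a 6.45-fold difference. No array overlapped for either receptor, and array 4 was the lowest CD24 high array for both. Array 4 was also the lowest for Prom1 (7.93 in array 4 against 10.10 and 9.74) and Stc2 (9.53 against 10.75 and 10.64), both of which mark hormone-sensing cells. Tnfsf11, or RANKL, the other paracrine mediator of progesterone, differed by only 0.62 (SE 0.17, adjusted p = 0.0288).

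Luminal progenitor genes gave 9 higher and 1 lower of 17. Kit, the stem cell factor receptor, was at 5.57, 5.69 and 5.48 against 9.30, 9.53 and 10.07 (difference 4.06, SE 0.42, adjusted p = 6.14e-05). Its ligand Kitl was lower in CD24 high cells (-1.69), so receptor and ligand lay in opposite fractions. Aldh1a3, a retinaldehyde dehydrogenase, was at 6.30, 6.03 and 5.42 against 10.35, 8.91 and 10.38, a 15.5-fold difference. Neither gene overlapped, and among CD24 high arrays the lowest was array 4 for Kit and array 12 for Aldh1a3. The progenitor list member that passed the other way was Itgb3 (-1.43), a call lost without array 4 or with only the 6 compared arrays fitted, and Sox10 did not pass (-0.13).

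Most genes of surface defence that passed were higher in luminal cells. Of 29 mucosal defence genes 13 passed higher and 1 lower. Dmbt1, a scavenger receptor of mucosal fluids, had the highest difference of all named genes, 4.80 (SE 0.79, adjusted p = 0.00158), with 4.34, 5.09 and 6.02 against 8.21, 10.85 and 10.81. Ltf, which encodes the iron-binding milk protein lactoferrin, was at 5.64, 5.09 and 6.52 against 9.70, 9.60 and 10.84, and Ido1, a tryptophan-degrading enzyme, at 5.04, 5.13 and 6.58 against 8.32, 10.48 and 11.23. None of these overlapped, and the CD24 low array with the highest value was array 15 for each. Cxcl15 (4.38), Wfdc2 (3.23) and Muc20 (3.14) were higher as well. The secretory protease inhibitor Slpi was the exception, at 11.71, 10.99 and 11.74 in CD24 low and at 8.01, 8.24 and 7.71 in CD24 high arrays (difference -3.49, SE 0.25).

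Milk genes were uneven, and 4 of 16 passed, all higher. Csn3, kappa-casein, was at 7.91, 7.70 and 8.88 against 10.88, 10.99 and 11.32 (difference 2.91, SE 0.48) and Btn1a1, a milk fat globule protein, at 5.21, 5.30 and 5.34 against 7.64, 8.39 and 8.87 (difference 3.02, SE 0.45). Neither overlapped. Csn1s1, an alpha-casein, ran from 5.47 in array 16 through 7.92 in array 12 to 10.45 in array 4, and Csn2, beta-casein, from 5.95 through 7.92 to 9.78 in the same order. Because of this spread neither passed (adjusted p = 0.0556 and 0.147). Wap, the whey acidic protein, was between 5.40 and 5.80 in all 6 arrays.

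Transporters were mostly higher and channels went both ways. Of 29 transporter genes 15 passed higher and 4 lower, with a median of 1.12 against 0.54 in WT cells. Slc28a3, a concentrative nucleoside transporter, was at 4.77, 4.50 and 4.75 against 8.22, 8.87 and 9.08 (difference 4.05, SE 0.39). Slc5a5, the sodium iodide symporter that loads iodide into milk, was at 6.24, 7.06 and 6.63 against 8.83, 11.66 and 11.11, again lowest in array 4 among CD24 high arrays. The epithelial sodium channel subunits Scnn1a (3.05) and Scnn1b (2.81) and the potassium channel Kcnk5 (3.26) were higher. Several channels of excitable and contractile cells were lower. Scn7a, a sodium channel, had the lowest difference of all genes named, -6.62 (SE 0.31, adjusted p = 2.87e-07), with 10.92, 11.34 and 11.36 against 4.99, 4.92 and 3.86, a 98.1-fold difference. Cacna2d1, a calcium channel subunit, differed by -4.63 (SE 0.19) and Kcnmb1, which couples potassium channels to calcium in smooth muscle, by -4.17 (SE 0.27).

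**Figure D2:**
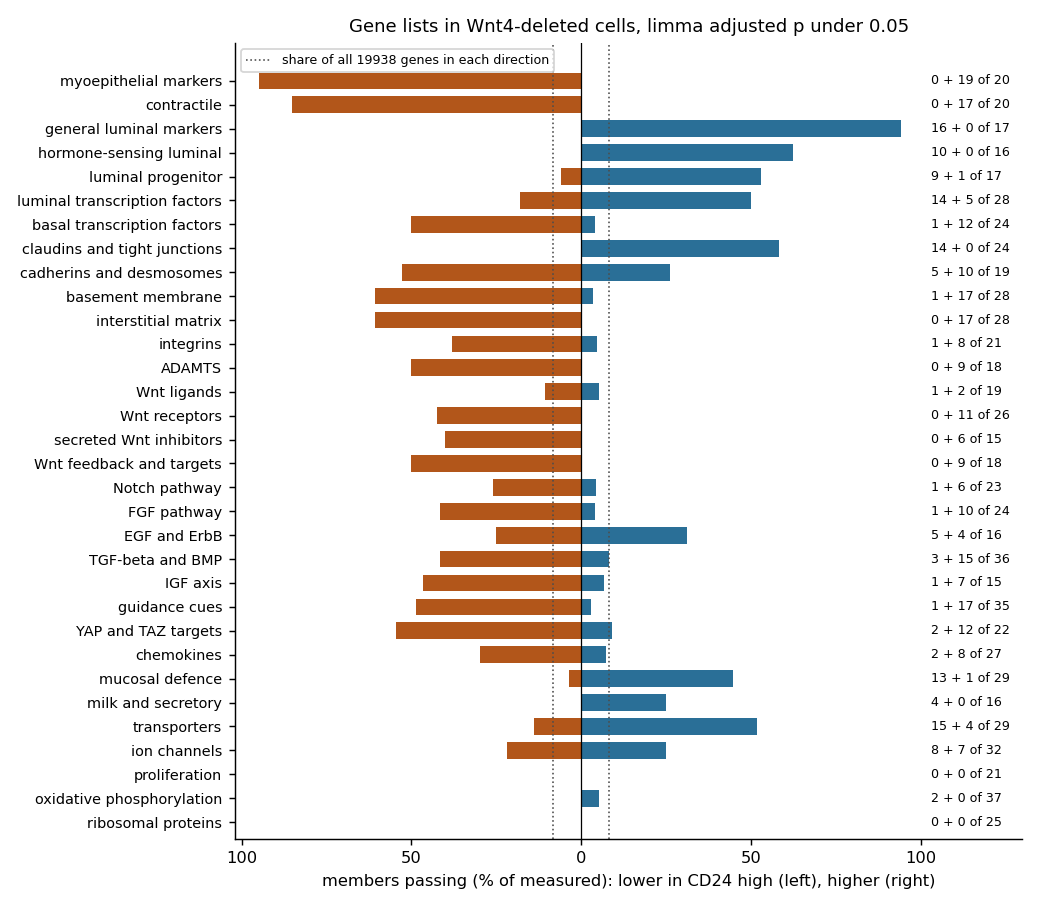
Share of the measured members of 32 gene lists (rows) that passed with limma in Wnt4-deleted cells, lower in CD24 high to the left and higher to the right, in percent of the members. Numbers at the right give members higher plus lower of those measured, and dotted lines mark the shares of all genes, 8.23% and 8.22%. Myoepithelial, contractile and matrix lists extend to the left, luminal, tight junction and transporter lists to the right, and the proliferation and ribosomal lists have no bar.

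Matrix genes were mostly lower in CD24 high cells. Of 28 basement membrane genes 17 passed lower and 1, Npnt, higher (0.83, a call lost without array 2, 3, 4, 9, 11, 12 or 16), with a median of -1.48. Of 28 interstitial matrix genes 17 passed lower and none higher, with a median of -2.24. The interstitial list shares Col1a1, Col1a2, Col3a1, Dcn, Lum and Fbln1 with the list of fibroblast markers, so the counts of these lists are not separate results. Col17a1, the hemidesmosomal collagen, was at 10.06, 9.74 and 8.47 against 5.80, 6.15 and 5.84 (difference -3.49, SE 0.33). Nid1 (-2.99), Hspg2 or perlecan (-2.76), the laminin chains Lama3 (-2.52) and Lama1 (-2.30) and Col4a1 (-2.52) were lower, while the alpha5 laminin chain Lama5 did not pass at 0.33. Fn1, fibronectin, was at 8.28, 10.24 and 8.85 against 5.94, 5.64 and 5.39 (difference -3.47, SE 0.53, adjusted p = 0.000977). The largest interstitial differences were those of Postn, or periostin (-5.67, SE 0.59), the proteoglycan Bgn (-5.28, SE 0.30), Col14a1 (-4.69, SE 0.27) and Fmod (-4.64, SE 0.34). Postn was at 12.02 in array 3, where the mean of the fibroblast markers was 6.24, and at 12.15 in array 11, where it was 8.27. Fibroblast and endothelial markers were uneven between the CD24 low arrays, as given below, and their part in the matrix differences was not tested. Among receptors for matrix, Itga1 (-4.17) and Itga9 (-3.40) were lower and Itgb6 (1.37) higher in CD24 high cells. The integrin list gave 9 passing members of 21, or 5 without array 4.

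Some of the proteases that act on matrix were lower in CD24 high cells as well. Adamts18, a secreted metalloprotease, was at 8.77, 7.91 and 7.35 in CD24 low and at 5.05, 5.07 and 5.06 in CD24 high arrays, a 7.74-fold difference (difference -2.95, SE 0.30, adjusted p = 5.80e-05). The CD24 high arrays lay close together and below every CD24 low array, of which array 3 was the highest. Of 18 ADAMTS genes 9 passed, all lower, and without array 12 or 16 the number was 6. Adamts4 (-3.29), Adamts5 (-3.24) and Adamts1 (-2.70) cleave proteoglycans such as versican, whose gene Vcan differed by -3.89 (SE 0.53). Of 22 other matrix proteases and inhibitors 8 passed lower and 1 higher, with a median of -0.25. Mmp2, a gelatinase, differed by -4.27 (SE 0.23) and its inhibitor Timp3 by -2.88 (SE 0.32), whereas the member that passed higher was the sheddase Adam10 (1.83, SE 0.14).

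Genes of Wnt reception and restraint that passed were lower in CD24 high cells, while Wnt4 itself did not pass. Of 26 receptor and R-spondin genes 11 passed, all lower (7 without array 16), of 15 secreted inhibitors 6, all lower, and of 18 feedback genes and targets 9, all lower. The lists share members, among them the passing genes Lgr5, Wif1 and Apcdd1, so these counts are not separate results. Lgr5, a receptor for R-spondins, was at 9.68, 9.82 and 10.39 against 4.90, 4.98 and 5.23 (difference -4.93, SE 0.23, adjusted p = 2.61e-07). Sfrp1, which binds Wnt ligands outside the cell, was at 8.80, 7.86 and 9.02 against 4.92, 4.78 and 4.57, a 14.0-fold difference. The fractions lay well apart for both. The receptors Fzd7 (-2.39) and Lgr4 (-2.12), the inhibitors Sfrp2 (-2.87) and Sostdc1 (-2.81), the factor Tcf7l1 (-1.78) and the feedback gene Nkd1 (-2.02) were lower too. Procr (-3.01), counted in the receptor list, encodes the protein C receptor and not a receptor for Wnt ligands. Axin2, the usual readout of canonical Wnt signalling, was at 6.73, 6.85 and 6.37 against 5.96, 5.72 and 5.82 (difference -0.81, SE 0.21, adjusted p = 0.0221), a call lost without array 3, 11, 12 or 16. Wif1 differed by -1.53 (SE 0.33) and Myc by -0.74 (SE 0.13). Of 19 Wnt ligands 3 passed (15.8%, near the 16.4% of all genes), Wnt10a (-1.55) and Wnt11 (-1.41) lower and Wnt7b (1.16) higher. The call of Wnt11 was lost without array 12 or 16.

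Ligands and receptors of other pathways were divided between the layers. Erbb3, a receptor for neuregulins, was at 6.59, 6.29 and 5.74 against 9.62, 9.76 and 9.55 (difference 3.44, SE 0.22), and Erbb4 (2.34), Erbb2 (1.44) and the ligands Nrg4 (2.13) and Btc (1.82) were higher as well. Egfr was at 9.77, 9.27 and 8.95 against 8.33, 7.22 and 7.93 (difference -1.50, SE 0.30), the reverse of its relatives. None of the arrays overlapped for Erbb3 or Egfr. Of 16 genes in the EGF and ErbB list 5 passed higher and 4 lower. Besides Egfr, those lower were Lrig3 (-2.21), Nrg1 (-1.81) and Lrig1 (-1.10). The call of Nrg1 was lost without array 3, 4, 9, 10, 12, 14 or 16. Of 5 Notch ligands 3 passed, all lower in CD24 high cells, with Dll1 at -4.03 (SE 0.18), Jag2 at -2.70 (SE 0.32) and Jag1 at -1.76, and Dll4 (-1.22) and Dll3 (-0.07) did not pass. Hes1, a target of Notch, was higher in CD24 high cells (1.36, SE 0.31), a call lost with arrays 9 to 16 alone. The Notch list gave 7 of 23 passing, or 11 without array 3. In the TGF-beta and BMP list 15 of 36 passed lower and 3 higher. The antagonist Fst, follistatin, was at 10.98, 10.07 and 10.44 against 5.85 to 6.65 (difference -4.33, SE 0.33), and Bmp7 (-2.93), Id4 (-3.00) and Tgfbr3 (-3.45) were lower, whereas the receptor Bmpr1b (1.89, SE 0.16), the latent binding protein gene Ltbp1 (1.98) and Inhbb (1.37) were higher.

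Most growth factor binding and guidance genes that passed were lower in CD24 high cells. Igfbp3, a binding protein for insulin-like growth factors, was at 12.14, 11.26 and 11.12 against 6.71, 4.78 and 5.25, a 60.8-fold difference (-5.93, SE 0.49). In its list 7 of 15 passed lower and 1, Igfals, higher (1.31), with Igfbp7 at -3.53 and Igfbp2 at -3.37. Of 35 guidance genes 17 passed lower and 1, Ntn1, higher (1.11). The repulsive cues Slit2 and Slit3 each differed by -3.43 (SE 0.22 and 0.18), and their receptor Robo2 by -1.45. Fgfr2, the receptor for FGF ligands of the stroma, was higher in CD24 high cells (1.08, SE 0.22), a call lost when only the 6 compared arrays were fitted, and Fgf2 (-1.52) and Fgf1 (-1.50) were lower. The FGF list gave 11 passing members of 24, or 7 without array 4 or 11.

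Of 22 YAP and TAZ genes 12 passed lower and 2 higher. Axl, a receptor tyrosine kinase, was at 9.92, 9.61 and 9.05 against 5.38, 5.68 and 5.30 (difference -4.07, SE 0.21) and Ptpn14, a phosphatase that restrains YAP, at 10.02, 10.17 and 9.73 against 7.06, 7.18 and 6.93 (difference -2.91, SE 0.14). Both genes hold the CATTCC motif shown above. Ccn2, or CTGF, was at 12.84, 12.11 and 12.09 against 10.67, 8.47 and 8.02 (difference -3.29, SE 0.54), with array 4 again closest to the CD24 low arrays. The factor Tead1 was lower (-1.77) and Tead2 higher (1.66), and Ccn1, another target of YAP, overlapped between fractions (0.19). Chemokines divided too, with Cxcl14 (-5.33, SE 0.28), Cxcl12 (-4.49, SE 0.26) and Ccl2 (-3.60, SE 0.26) lower in CD24 high cells. Of 27 in the list 8 passed lower and 2 higher.

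Markers of other cell types were higher in some of the CD24 low arrays. The mean of 17 endothelial markers was 6.50, 8.94 and 8.75 in CD24 low and 5.20, 6.32 and 5.40 in CD24 high arrays, and Pecam1, the endothelial adhesion molecule CD31, was at 7.34, 10.39 and 10.08 against 5.13, 7.30 and 5.75. Array 3 thus held far less endothelial transcript than arrays 11 and 15. Of the 17 markers 11 passed lower, but 17 did so without array 3, 2 without array 4 and 1 without array 11, 15 or 16. The fibroblast mean was highest in array 11 (8.27, against 6.24 and 6.91 in arrays 3 and 15 and 5.52 to 5.77 in CD24 high arrays). Of 15 fibroblast markers 3 passed (20.0%, near the 16.4% of all genes), or 5 without array 3 or 9. Pdgfra, a defining fibroblast marker, overlapped between fractions at 5.50, 7.08 and 5.49 against 4.58, 5.57 and 5.33. The pericyte list gave 4 of 11 passing, which became 7 without array 3 and 2 without array 4 or 11.

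Immune markers were lower and closer together. Ptprc, the common leukocyte antigen, was between 4.38 and 5.28 in CD24 low and between 4.09 and 4.38 in CD24 high arrays. Of 22 immune markers 3 passed (13.6%, below the 16.4% of all genes). The number was 7 without array 3 and 1 without array 4, 11 or 16. Cd14 was higher and the antigen presentation genes Cd74 and H2-Aa were lower. The calls of Cd14 (lost without array 3, 4, 11 or 16) and H2-Aa (without array 4, 11, 15 or 16) rested on single arrays, and Cd74 was at 8.98, 8.83 and 8.46 against 5.68, 5.38 and 4.78. Among the deleted arrays skeletal muscle genes marked array 3, with a list mean of 7.23 against 5.04 to 5.41 in the other arrays, and Acta1, skeletal alpha-actin, was at 6.48 to 7.10 in those arrays and higher in array 3. Of 18 such genes 1 passed, Myh1 (-0.48), a call that was lost without array 1, 3, 4, 9, 10, 11, 12, 13, 14 or 16, and 2 passed without array 15. Their median was -0.98, or -0.21 without array 3. The contractile list means of arrays 3, 11 and 15 were 9.75, 9.79 and 9.38. Division genes were high in array 3 (7.61) and array 4 (7.79) and between 5.58 and 6.29 in the other arrays. The part of these differences in the results given for arrays 3 and 4 was not tested. Fitted on arrays 9 to 16 of all groups, 3588 genes passed and all 3278 genes kept their direction.

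**Figure D3:**
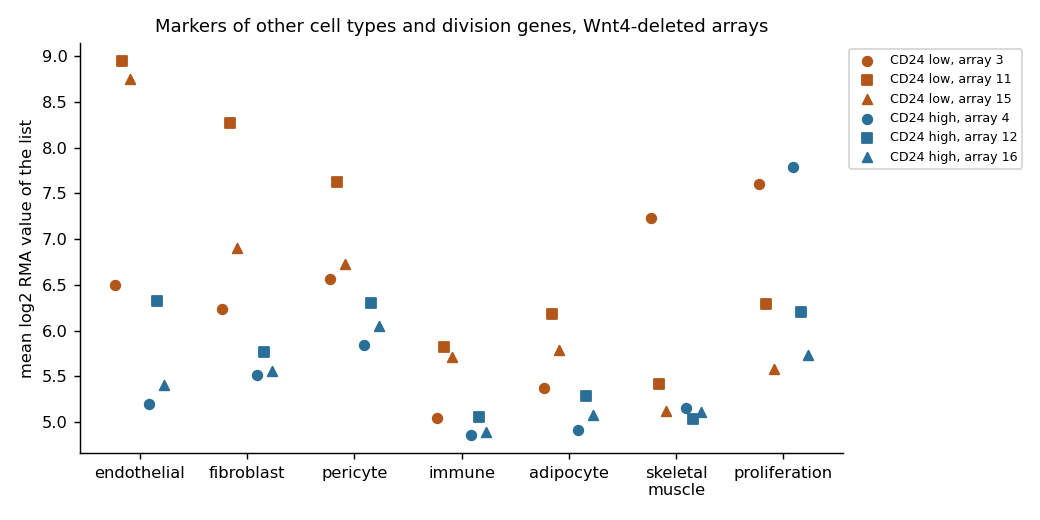
Mean log2 RMA value (y axis) of marker lists for other cell types and of division genes (x axis), 1 point per Wnt4-deleted array, CD24 low in orange and CD24 high in blue. Endothelial markers stand high in CD24 low arrays 11 and 15 (8.94 and 8.75), fibroblast markers in array 11 (8.27), skeletal muscle genes in array 3 (7.23), and division genes in arrays 3 and 4 (7.61 and 7.79).

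Whether the contrast between layers depended on Wnt4 was asked with the same comparison in WT cells, where 3218 genes (16.1%) passed. Of these, 2465 passed in both genotypes, which is 75.2% of the calls in deleted cells and 76.6% of those in WT cells, and all 2465 had the same direction. Another 813 genes passed in deleted cells only, of which 804 had the same sign in WT cells. limma passed no gene, 0 of 19938 (0%), for a change of the fraction difference between genotypes. The smallest adjusted p was 0.99992, and 273 genes (1.37%) had an unadjusted p under 0.05, where 997 would be expected by chance. Wnt4, the deleted gene, did not pass either, so with 3 arrays per group this test cannot show that a difference was the same in both genotypes. Every alternative setting that allowed this test gave 0 as well. List medians in deleted and WT cells were -3.84 and -4.06 for myoepithelial markers, -3.03 and -2.98 for contractile genes and 2.42 and 2.11 for general luminal markers. They lay furthest apart for skeletal muscle genes (-0.98 and -0.34, with array 3 setting the first as given above), transporters (1.12 and 0.54) and chemokines (-0.81 and -0.29, the first being -0.51 without array 16), with no test of these medians.

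**Figure D4:**
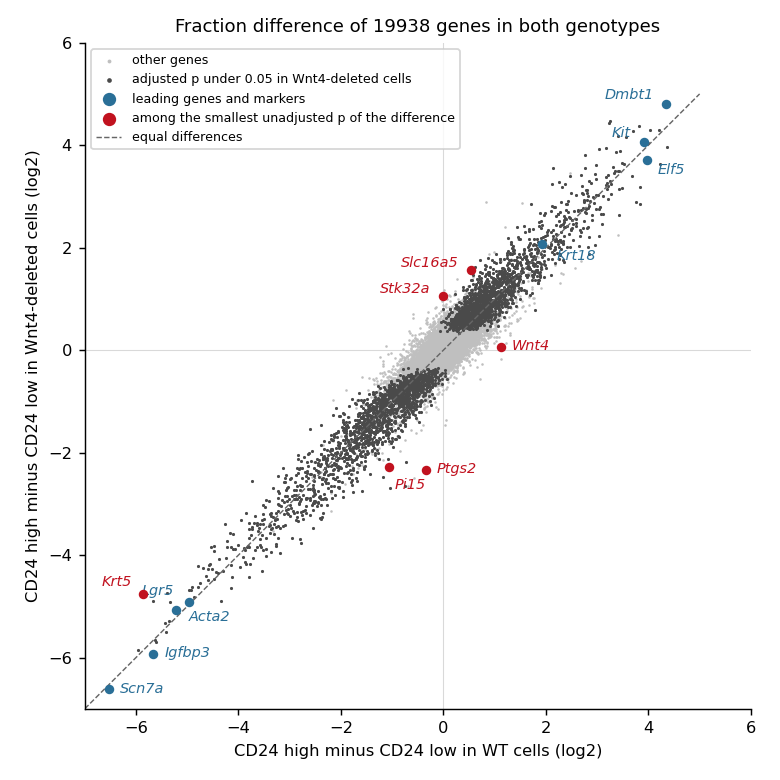
Difference between CD24 high and CD24 low cells (log2) in WT cells (x axis) against that in Wnt4-deleted cells (y axis), 1 point per gene, with genes that passed in deleted cells in dark grey. Most genes lie along the dashed line of equal differences, and the genes in red, among those with the smallest unadjusted p for the change, lie off it, as Wnt4 does (1.13 in WT and 0.07 in deleted cells).

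The genes with the smallest unadjusted p for a change between genotypes are given by value only, since none passed. For Wnt4 the fraction difference in deleted cells minus that in WT cells was -1.06 (SE 0.27). Krt5 differed less between fractions in deleted cells (-4.75 against -5.87). CD24 high cells of deleted mice were at 7.05, 6.34 and 6.82 and those of WT mice at 6.03, 5.76 and 5.76. These arrays did not overlap, and the change was 1.12 (SE 0.30). Ptgs2, the inducible cyclooxygenase of prostaglandin synthesis, was at 9.49, 9.14 and 9.97 in CD24 low and at 7.60, 6.49 and 7.52 in CD24 high deleted cells. In WT cells its fractions overlapped, with CD24 high arrays at 8.79, 8.02 and 9.18, so that its difference was -2.33 in deleted and -0.35 in WT cells. Pi15, which encodes a secreted protease inhibitor, went the same way (-2.29 against -1.06). Stk32a, a kinase gene, was at 5.46, 5.43 and 5.15 in deleted CD24 high cells and between 4.09 and 4.51 in the other 9 arrays, and its difference was 1.05 against -0.01. Slc16a5, a member of the monocarboxylate transporter family, differed by 1.56 against 0.54. Of the other genes central to the study, Wif1 differed by -1.53 in deleted and -2.61 in WT cells, and Adamts18 by -2.95 and -3.40.

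**Figure D5:**
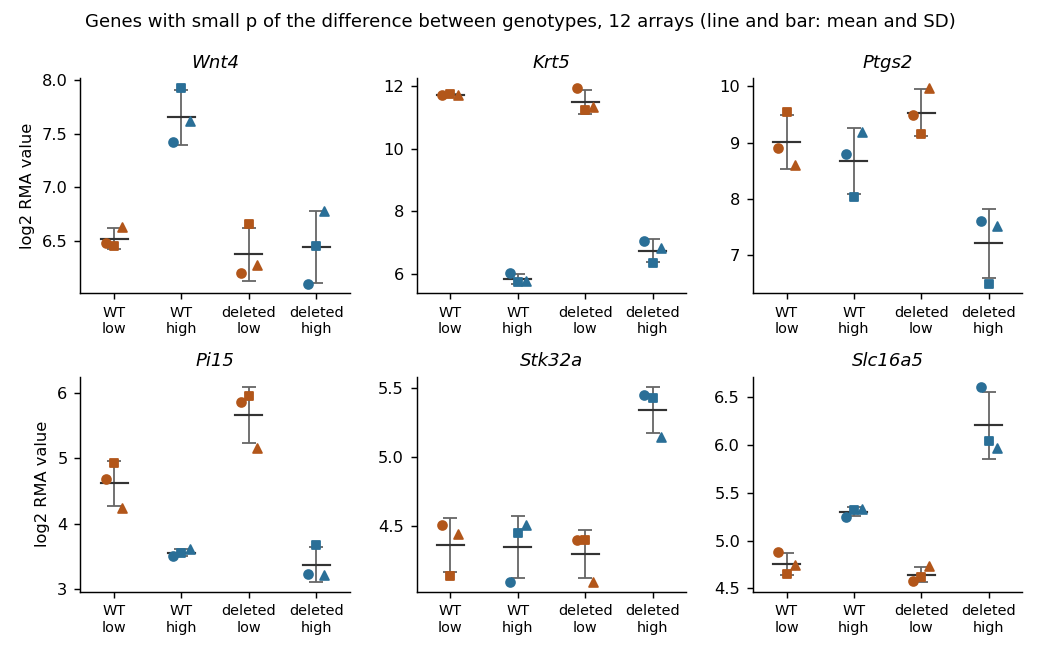
Log2 RMA values (y axes, each with its own range and not starting at 0) of 6 genes in all 12 arrays by genotype and fraction (x axis), 1 point per array with the mean as a line and the SD as a bar. Wnt4 is raised only in WT CD24 high cells (7.42 to 7.92), Krt5 and Ptgs2 differ between genotypes mainly in CD24 high cells, Pi15 mainly in CD24 low cells, and Stk32a and Slc16a5 are highest in deleted CD24 high cells. No change between genotypes passed over all genes.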

How the data were processed

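Total RNA of sorted cells was amplified, labelled with biotin and hybridised to 12 arrays, 3 in each of 4 groups taken from the sample titles. Per the submitters' processing notes, RMA was run by the authors in Affymetrix Expression Console 1.1.2800. RMA corrects background, equalises the arrays' quantiles and fits each probeset by median polish, and the deposited table holds its log2 values (1.62 to 13.80, array medians 5.64 to 5.82). The log base follows from the method and the range. Scanner files were not used here. Precision is limited by the number of arrays, since an array has no sequencing depth.

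Of 35556 probesets, the 21789 with 1 gene symbol were kept, and 1621 with several symbols and 12146 unnamed ones were left out. The probeset with the highest mean over the 12 arrays stood for a gene (999 genes had more than 1). Tests used limma 3.58.1 in R 4.3.3 (lmFit, eBayes, 4 group means, 8 residual degrees of freedom, 11.05 after moderation), were two-sided and adjusted by Benjamini-Hochberg over 19938 genes, and were tested on simulated data. The change between genotypes was the difference of both fraction contrasts. Gene lists were written by hand and are described by counts and medians.

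Named were the 15 highest and 15 lowest passing differences without overlap (predicted genes, small RNAs, immunoglobulin segments and olfactory or vomeronasal receptors only counted), up to 6 passing members per list in its direction and 4 against it, the 8 smallest p each way for the change between genotypes, and genes central to the study. A few other list members given by value were chosen after their values were seen. The comparison, lists, motifs and rule were chosen with earlier results of these data known. Alternatives were a filter on dim genes, the mean of probesets, median centring, a second quantile normalisation, a trend with robust prior, array weights, the 6 compared arrays alone, runs of title numbers as a block, a threshold of 0.01, and leaving out each array. A fit on arrays 9 to 16 was added after seeing the data.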

Additional observations from a re-analysis of the deposited data

How the results depend on the processing

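All 3278 passing genes kept their direction in every setting that tested them (2905 of them were tested with the filter on dim genes). The number passing was 3105 with that filter, 3288 with the mean of probesets, 3445 with median centring, 3371 with a second quantile normalisation, 3111 with a trend and robust prior and 4143 with array weights. It was 2233 when only the 6 compared arrays were fitted, of which 1088 were higher in CD24 high cells, and 1854 at an adjusted p under 0.01 (860 higher and 994 lower). Leaving out 1 array gave 2156 (array 16) to 3628 (array 3) passing genes, 1009 (array 16) to 1821 (array 3) of them higher and 1147 (array 16) to 1807 (array 3) lower. The change between genotypes gave 0 genes in each of these settings that allowed it. With median centring 58.3% of the passing genes were higher, against 1640 of 3278. Of 273 named genes that passed, 233 also passed whichever array was left out, and 221 in every setting run. The titles give the compared groups no shared replicate number, so runs of neighbouring numbers stood in for a pairing. With runs of title numbers (1 to 4, 9 to 12, 13 to 16) as a block, 3747 genes passed (fixed) or 3509 (random), and the deviations of arrays 3 and 4, 11 and 12, and 15 and 16 correlated at 0.45, 0.53 and 0.18.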

Other observations

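Few genes of oxidative phosphorylation, the ribosome and division passed, against 16.4% of all genes. All 37 measured genes of oxidative phosphorylation had positive differences in Wnt4-deleted cells, with a median of 0.54 against 0.01 over all genes and 0.24 in WT cells (0.25 in deleted cells without array 11), but limma passed only Atp5c1 and Cox8a, and without array 1, 4, 10, 11, 12 or 16 none (4 without array 2 and 1 without array 3, 9, 13 or 14). Of 25 ribosomal protein genes none passed (3 had an unadjusted limma p under 0.05, and 1 passed without array 12), with a median of 0.20, or 0.09 without array 11. Division genes had no passing member among 21 (2 had an unadjusted limma p under 0.05, and 1 passed without array 3, 4 or 10). Their median of 0.11 rested on single arrays, being 0.715 without array 3, 0.33 without array 12, 0.62 without array 16, 0.0011 without array 11, -0.44 without array 15 and -0.56 without array 4. Of 24 genes of sterol and fatty acid synthesis 3 passed higher and 1 lower (16.7%, near the share of all genes). The desaturase gene Scd1 was 2.15 higher in CD24 high cells. The number of this list passing was 10 without array 3, 7 without array 2, 2 without array 11 or 12 and 1 without array 16.

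Enzymes of drug and retinoid metabolism were divided, with 9 of 30 passing higher and 4 lower. Tph1, the first enzyme of serotonin synthesis, was at 6.38, 4.95 and 4.90 in CD24 low and at 9.77, 9.46 and 10.44 in CD24 high arrays (difference 4.48, SE 0.66), and Cyp3a57 differed by 4.30 and Gsta4 by 3.23, while Cyp1b1 was lower in CD24 high cells (-2.67). Of 17 serpin and coagulation genes 10 passed lower, among them Serping1 (-3.85) and Serpina3n (-3.27), and tissue factor, F3, was higher (1.74). Among 22 immediate-early genes Egr2 (-2.37) and Nr4a2 (-1.86) were lower, Klf6 was higher (0.74), and Fos (-0.09) and Jun (0.37) did not pass.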
